A study of Mus musculus with 24 samples.

Results

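The miR-30 family was followed in serum exosomes of mice given toosendanin, a triterpenoid from Melia plants that is known to injure the liver at high doses. The 5 members were the 5p strands mmu-miR-30a-5p, mmu-miR-30b-5p, mmu-miR-30c-5p, mmu-miR-30d-5p and mmu-miR-30e-5p, taken by name from the array's annotation, and they were 5 of the 1881 miRNAs on the array. All mice were male BALB/c, received toosendanin (TSN) at 80 mg/kg or vehicle, and gave serum after 3, 9 or 21 days of dosing. The 6 groups were TSN at days 3, 9 and 21 and vehicle control at days 3, 9 and 21, with 4 arrays in each (n = 4 per group for every value). Serum was taken on the day after the last dose. The labels used here name no age, and do not say whether the serum of an array came from 1 animal or was pooled. The p-values therefore describe only how these arrays spread, which may be technical. The exosomes are defined by the label alone, and an array on serum material does not name the cells that released a miRNA.

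MicroRNAs guide silencing complexes to messenger RNAs mainly through the seed, a short stretch near the 5′ end. Members of one family share the seed and are therefore predicted to bind overlapping sets of messages. The miR-30 family is abundant in epithelia and in heart muscle, restrains epithelial-to-mesenchymal regulators such as Snai1 and the matrix factor Ccn2, and was shown in zebrafish to be needed for bile duct formation. In serum, members travel inside vesicles and bound to proteins.

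The mature sequences show where the members are alike and where they can be told apart. They are those of RefSeq on GRCm38.p6, which matched 3 of the 5 members by name, with the seed (bases 2 to 8) in capitals.
mmu-miR-30a-5p: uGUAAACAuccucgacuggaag
mmu-miR-30e-5p: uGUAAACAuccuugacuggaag
mmu-miR-30c-5p: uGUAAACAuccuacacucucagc
mmu-miR-384-5p: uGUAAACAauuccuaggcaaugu
The first 12 bases were the same in miR-30a-5p, miR-30e-5p and miR-30c-5p. Counted from the 5′ end, miR-30a-5p and miR-30e-5p differed by the single substitution C13U, and miR-30a-5p and miR-30c-5p by C13A, G14C, G18C, G19U and A20C over the 22 bases that both have. mmu-miR-384-5p is a related miRNA outside the family's name, and it shared the seed and the first 8 bases with all 3. In the usual grouping by the bases after the seed, miR-30d-5p goes with miR-30a-5p and miR-30e-5p, and miR-30b-5p goes with miR-30c-5p. The probes that stood for miR-30a-5p and miR-30e-5p complement bases 6 to 22, and that for miR-30c-5p bases 6 to 23, so position 13 lies inside the probed stretch of each. How far one member's probe also takes up another member was not tested.

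The members come from 3 pairs of neighbouring genes. miR-30a-5p lies at chr1:23272274-23272295 (plus strand) in Mir30a, 19361 bases from Mir30c-2, which holds a copy of miR-30c-5p at chr1:23291714-23291736 (plus strand). The other copy of miR-30c-5p, at chr4:120769584-120769606 (minus strand) in Mir30c-1, and miR-30e-5p, at chr4:120772660-120772681 (minus strand) in Mir30e, both lie within the span of Nfyc, which encodes a subunit of the nuclear factor Y complex. Mir30b (chr15:68337415-68337510) and Mir30d (chr15:68341208-68341289) are 3697 bases apart. Each neighbouring pair thus joins a member of the a, d and e subgroup to one of the b and c subgroup, and a signal for miR-30c-5p cannot be divided between its 2 genes.

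Values are log2 signals relative to each array's 75th percentile, taken over those probes that every one of the 24 arrays read well above background. A change is the log2 difference of group means, TSN minus control, with its standard error (SE). It was tested in one limma fit over 441 miRNAs, those that the 4 arrays of some group all read well above background, with Benjamini-Hochberg adjustment and a threshold of 0.05. All 5 members were among the 441. miR-30a-5p, miR-30b-5p and miR-30d-5p were well above background on all 24 arrays, miR-30c-5p on 2 of 4 control arrays at each of days 3 and 9 and on all others, and miR-30e-5p on 3 of 4 control arrays at day 3 and on all others. Because a value depends on its probe, levels are compared between groups and not between members.

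The TSN arrays were brighter than the control arrays throughout. They had 378 to 467 miRNAs well above background against 183 to 351 on control arrays, and their 75th percentile before scaling was 7.08, 10.3 and 4.62 times higher at days 3, 9 and 21 (exact two-sided permutation p = 0.0286 each, the smallest that 4 against 4 arrays allow, adjusted p = 0.0286 over 9 tests). The signal of the labelling spike-in probes was 3.26, 3.22 and 2.98 times higher at the same days. Slide 3 held TSN day 3, slide 4 TSN days 9 and 21, slide 1 control days 3 and 9, and slide 2 control day 21. By the file headers, control days 3 and 9 were scanned on date 1, control day 21 on date 2 and all TSN arrays on date 3. TSN and control therefore cannot be told apart from slides and scan dates. The comparisons within a slide are TSN day 21 against day 9 and control day 9 against day 3. Since every signal is set against the rest of its array, a member that fell did so relative to other miRNAs.

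After TSN, the family did not move as one. miR-30d-5p and miR-30e-5p fell at all 3 days, miR-30a-5p fell at days 3 and 21, and miR-30c-5p rose at days 3 and 9. miR-30b-5p passed the test at no day, with changes of 0.41, 0.43 and -0.35. At day 3, 4 of 5 members passed, 1 higher and 3 lower, where 47.8% of all 441 miRNAs passed, 29.3% higher and 18.6% lower. At day 9, 3 of 5 passed, 1 higher and 2 lower, against 62.1% of all, 27.7% higher and 34.5% lower. At day 21, 3 of 5 passed, all lower, against 44.9% of all, 23.1% higher and 21.8% lower. The median change of the 5 was -0.50, 0.12 and -0.36 at days 3, 9 and 21, beside medians over all tested miRNAs of 0.10, -0.04 and 0.01. The values of the 4 TSN and the 4 control arrays did not overlap for 3 of 5 members at each day, against 40.6%, 51.9% and 38.8% of all miRNAs. The 3 of 5 members that passed at day 9 were close to the share of the whole array. Whether the counts at days 3 and 21 differ from that share was not tested. With 1 array left out, 1 to 3 members passed at day 21.

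**Figure D1:**
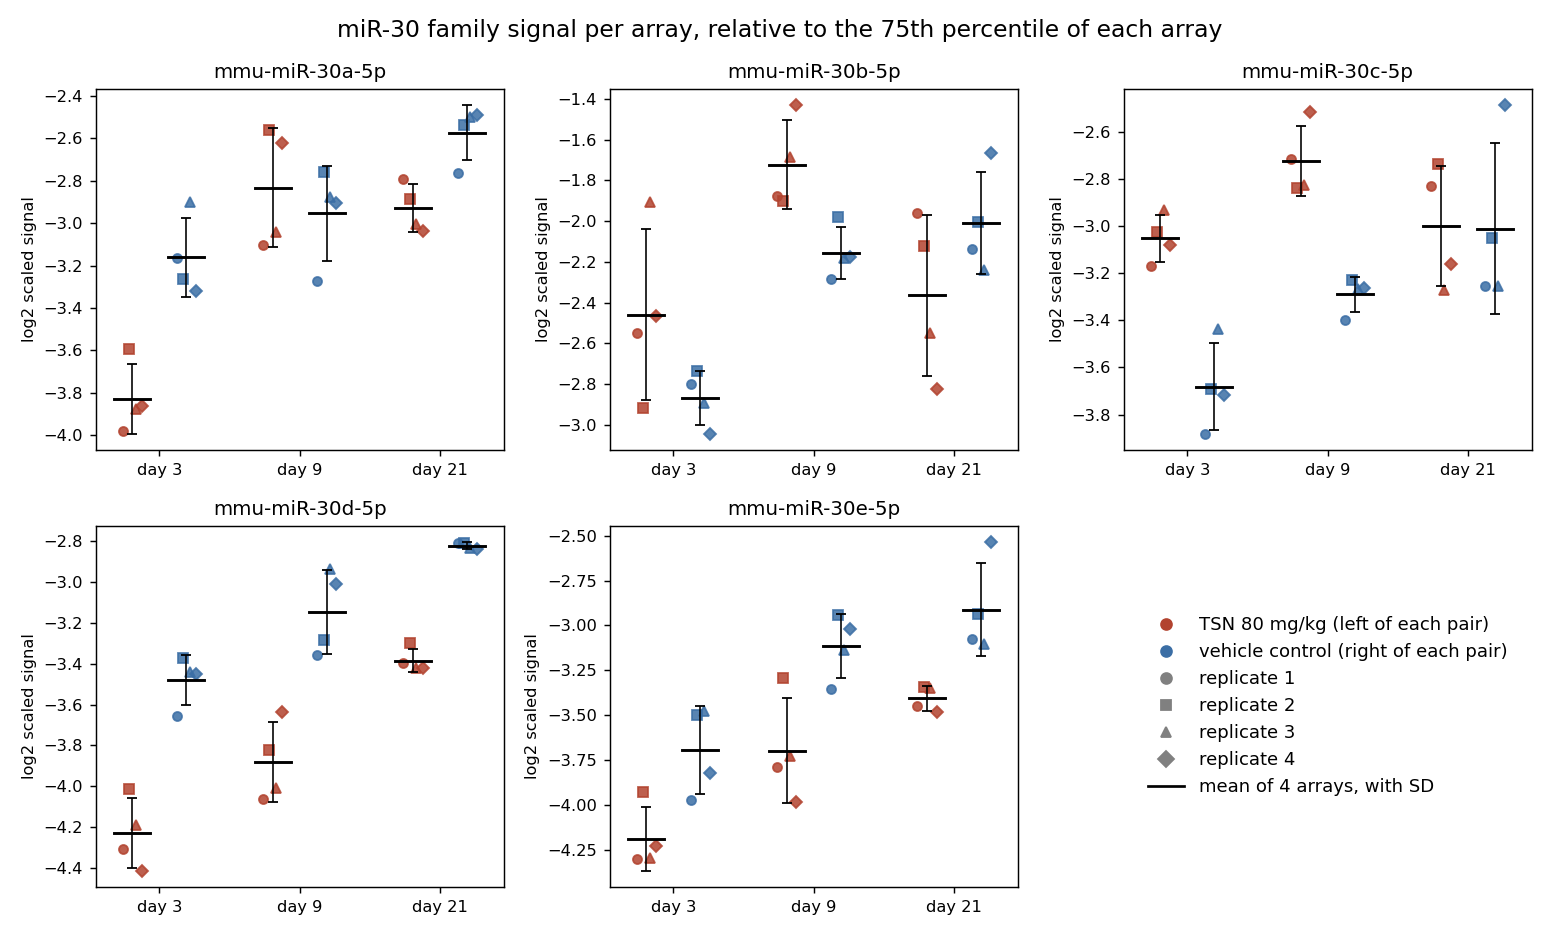
Log2 signal of each miR-30 family member relative to the 75th percentile of the array (y axis) by day (x axis), with TSN arrays in red left of control arrays in blue, 1 symbol per replicate, and the mean with SD in black (n = 4). miR-30d-5p is lower on every TSN array than on every control array of the same day, and miR-30c-5p is higher in this way at days 3 and 9.

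miR-30d-5p, which heart muscle cells are known to release in vesicles, fell at every day. At day 3 it read -4.30, -4.01, -4.19 and -4.41 on the TSN arrays, against -3.65, -3.37, -3.44 and -3.45 on the control arrays. At day 9 the TSN values were -4.06, -3.82, -4.01 and -3.63, against control values of -3.36, -3.29, -2.94 and -3.01. At day 21 the TSN values were -3.40, -3.30, -3.42 and -3.42, against -2.81, -2.81, -2.84 and -2.84 in controls. All 12 TSN values lay below the control values of their day, and at day 21 both groups were tight. With an SE of 0.104 throughout, limma gave a day 3 change of -0.75 (adjusted p = 5.39e-06), a day 9 change of -0.73 (adjusted p = 6.15e-06) and a day 21 change of -0.56 (adjusted p = 0.000189), or 0.595, 0.602 and 0.677 times the control level. The second probe for miR-30d-5p gave -0.906, -1.003 and -0.627. Relative to the median shift of all miRNAs, the change stayed below 0 at days 3 and 21 under all 13 other settings but did not pass at any day when arrays were scaled by all probes or by the spike-ins, left unscaled, or corrected by normexp, and unscaled it was 0.35 at day 9.

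miR-30e-5p, which shares its host gene with a copy of miR-30c, also fell at every day, with more overlap. At day 3 it read -4.30, -3.93, -4.30 and -4.22 on TSN arrays, against -3.97, -3.50, -3.48 and -3.82 on control arrays. At day 9 the TSN values were -3.79, -3.29, -3.72 and -3.98, against control values of -3.35, -2.94, -3.14 and -3.02. At day 21 the TSN values were -3.45, -3.35, -3.35 and -3.48, against -3.07, -2.94, -3.10 and -2.54 in controls. The groups overlapped at days 3 and 9, through TSN replicate 2 and control replicate 1, and were apart at day 21. With an SE of 0.151, the day 3 change was -0.50 (adjusted p = 0.00984), the day 9 change -0.58 (adjusted p = 0.00234) and the day 21 change -0.49 (adjusted p = 0.0122). The second probe, well above background on 0, 1 and 2 of 4 control arrays at days 3, 9 and 21, gave -0.04, -0.17 and -0.20. The fall did not pass under 6 of 12 other settings at each day, unscaled values turned it to 0.16 and 0.50 at days 3 and 9, and without control replicate 4 the day 21 change was -0.37 (adjusted p = 0.057).

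miR-30a-5p, known in human cells to repress the autophagy gene BECN1, was low at day 3 and not at day 9. At day 3 it read -3.98, -3.59, -3.88 and -3.86 on TSN arrays, against -3.16, -3.26, -2.90 and -3.32 on control arrays. At day 9 the TSN values were -3.10, -2.56, -3.04 and -2.62, against control values of -3.27, -2.76, -2.88 and -2.90. At day 21 the TSN values were -2.793, -2.886, -3.004 and -3.037, against -2.77, -2.54, -2.50 and -2.49 in controls. The groups were apart at days 3 and 21 and overlapped at day 9. With an SE of 0.134, the day 3 change was -0.67 (adjusted p = 0.000334), the day 9 change 0.12 (adjusted p = 0.46, 95% interval -0.16 to 0.40) and the day 21 change -0.36 (adjusted p = 0.0372). The day 3 change was -0.66 and -0.19 by the 2 other probes, and at day 9 these gave 0.48 and 1.07. At day 21 they gave -0.11 and 0.24, the second with the opposite sign. At days 3, 9 and 21 the first was well above background on 2, 1 and 3 of 4 control arrays, and the second on 0, 1 and 2. The day 3 call was lost under 5 of 13 other settings, of which unscaled values (0.09) and normexp (0.02) turned its sign. The day 21 call was lost under 11 of 13 other settings, 2 of which turned its sign, and in 6 of 8 fits without 1 array.

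miR-30c-5p, which in mice represses the lipoprotein assembly gene Mttp in the liver, rose early. At day 3 it read -3.17, -3.02, -2.93 and -3.08 on TSN arrays, against -3.88, -3.69, -3.44 and -3.72 on control arrays. At day 9 the TSN values were -2.71, -2.84, -2.83 and -2.52, against control values of -3.40, -3.23, -3.27 and -3.26. At day 21 the TSN values were -2.83, -2.74, -3.27 and -3.16, against -3.25, -3.05, -3.25 and -2.49 in controls. Every TSN array exceeded every control array at days 3 and 9, and at day 21 the ranges coincided. With an SE of 0.148, the day 3 change was 0.63 (adjusted p = 0.00132) and the day 9 change 0.57 (adjusted p = 0.00255), which are 1.55 and 1.48 times the control level. At day 21 it was 0.01 (adjusted p = 0.985, 95% interval -0.30 to 0.32). The second probe, well above background on no control array at days 3 and 9, gave 0.53, 0.69 and 0.30. With normexp the rises were no smaller but did not pass (0.64 and 0.67, adjusted p = 0.0578 and 0.0547). They turned round with the software's total gene signal (-3.01 and -2.81). That signal was 0.322 to 0.337 times the mean of the miR-30c-5p spots on TSN arrays, against 0.326 to 5.45 times on control arrays.

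miR-30b-5p, described with miR-30d in human melanoma invasion, did not pass at any day. At day 3 it read -2.55, -2.92, -1.91 and -2.47 on TSN arrays, against -2.80, -2.74, -2.89 and -3.04 on control arrays. At day 9 the TSN values were -1.87, -1.90, -1.68 and -1.43, against control values of -2.28, -1.98, -2.18 and -2.18. At day 21 the TSN values were -1.96, -2.12, -2.55 and -2.82, against -2.134, -2.003, -2.241 and -1.664 in controls. The groups were apart at day 9 and overlapped at days 3 and 21, where the TSN arrays spread most. With an SE of 0.194, the day 3 change was 0.41 (adjusted p = 0.0946, 95% interval 0.00183 to 0.814), the day 9 change 0.43 (adjusted p = 0.0596, 95% interval 0.0263 to 0.839) and the day 21 change -0.35 (adjusted p = 0.157, 95% interval -0.759 to 0.0539). The second probe, well above background on 0, 1 and 3 of 4 control arrays at days 3, 9 and 21, gave 1.12, 1.15 and 0.27. The day 9 change passed under 8 of 13 other settings, with changes of 0.43 to 1.54, was -1.45 with the total gene signal, and without TSN replicate 2 the day 3 change was 0.56 (adjusted p = 0.0232). The day 3 rise passed under 2 of 13 other settings, among them normexp (0.92, adjusted p = 0.0025), and turned to -2.07 with the total gene signal.

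**Figure D2:**
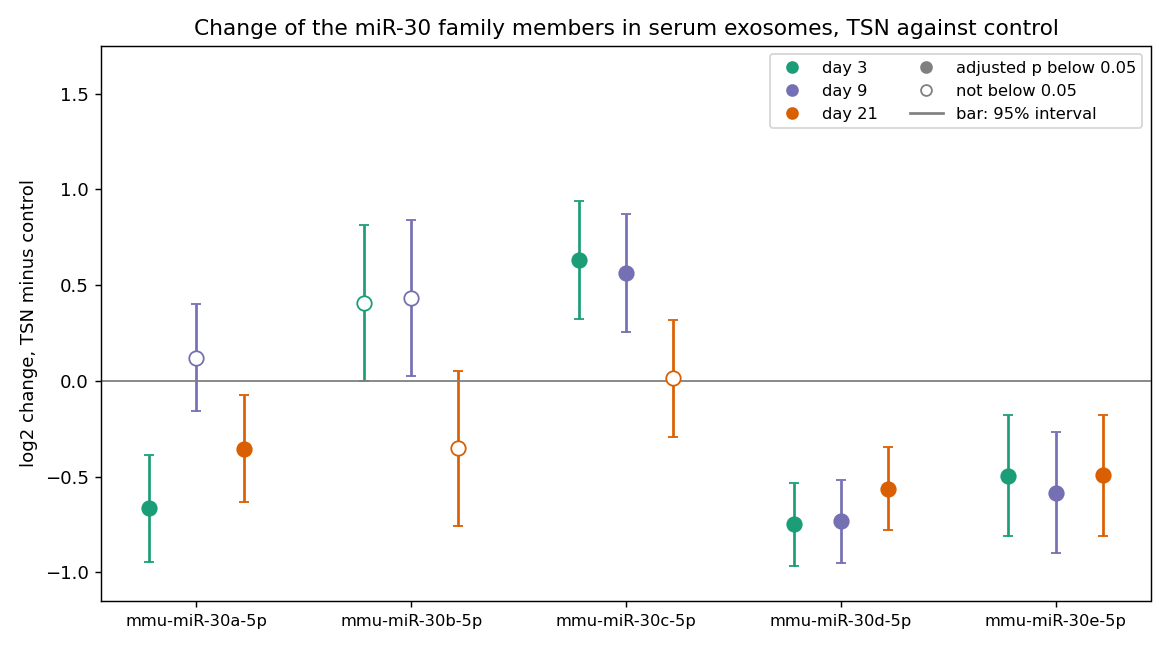
Log2 change of each member, TSN minus control (y axis), at days 3, 9 and 21, with 95% intervals from the limma fit; filled points passed the adjusted threshold of 0.05 and open points did not. miR-30d-5p and miR-30e-5p lie below 0 at each day and miR-30c-5p above 0 at days 3 and 9, while miR-30b-5p has open points only.

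The change between days was tested as a difference of the TSN effects. The effect on miR-30a-5p was 0.79 higher at day 9 than at day 3 (SE 0.189, limma adjusted p = 0.00594), the 1 member of 5 that passed, where 19% of all miRNAs passed. From day 9 to day 21, miR-30b-5p (-0.78, SE 0.275, adjusted p = 0.0334) and miR-30c-5p (-0.55, SE 0.209, adjusted p = 0.0466) had a lower TSN effect, 2 of 5 members against 35.1% of all. Between day 21 and day 3 no member passed in limma and 13.4% of all miRNAs did, while 2 members, miR-30b-5p and miR-30c-5p, had an unadjusted p below 0.05 (0.0121 and 0.00798). The effects on miR-30d-5p and miR-30e-5p differed between days by -0.09 to 0.19, and none of these 6 differences passed, with 95% intervals between -0.53 and 0.54. For day 21 against day 9, 0 to 3 members passed when 1 array was left out. With the replicate number as a block, neither miR-30b-5p (adjusted p = 0.0522) nor miR-30c-5p (adjusted p = 0.0543) passed, and miR-30a-5p did (-0.48, adjusted p = 0.0472).

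Ratios of 2 members on one array do not depend on how arrays are scaled. The log2 ratio of miR-30c-5p over miR-30d-5p at day 3 was 1.14, 0.99, 1.26 and 1.33 on TSN arrays, against -0.23, -0.32, 0.01 and -0.26 on control arrays. At day 9 it was 1.35, 0.98, 1.18 and 1.12 on TSN arrays, against -0.04, 0.06, -0.33 and -0.25 on control arrays. At day 21 it was 0.57, 0.56, 0.15 and 0.26 on TSN arrays, against -0.45, -0.25, -0.42 and 0.35 on control arrays. The groups were far apart at days 3 and 9 and met at day 21 through control replicate 4. The ratio was 2.6 times higher in TSN at day 3, 2.46 times at day 9 (exact two-sided permutation p = 0.0286 each) and 1.49 times at day 21 (exact p = 0.0857).

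At day 3, with the values as scaled here, the ratios that were apart joined the 2 subgroups. Of the 6 ratios that set miR-30b-5p or miR-30c-5p against miR-30a-5p, miR-30d-5p or miR-30e-5p, 5 did not overlap between TSN and control, and 0 of the 4 ratios within a subgroup were apart, with changes of -0.25 to 0.08. The ratio between subgroups that overlapped was miR-30b-5p over miR-30e-5p, with a change of 0.90 (exact p = 0.0571). At day 9, 4 of 6 and 2 of 4 were apart, and the 2 within a subgroup set miR-30a-5p above miR-30d-5p (0.85) and above miR-30e-5p (0.70). At day 21, 1 of 6 (miR-30c-5p over miR-30e-5p, 0.51) and 1 of 4 (miR-30a-5p over miR-30d-5p, 0.21) were apart. In all, 5, 6 and 2 of 10 ratios did not overlap at days 3, 9 and 21. Of the 11476 ratios among the 152 miRNAs well above background on every array, 52.1%, 66% and 51.6% did not overlap. miR-30c-5p and miR-30e-5p were not among these 152, so every ratio with either of them lies outside that set. The same limit applies to the ratio shares over time within an arm given below. The counts at days 3 and 9 were near the shares over all ratios and the count at day 21 was below its share. That day 21 count ran from 2 to 6 with 1 array left out, and was 6 without control replicate 4. It was 3 in the authors' deposited values. The smallest adjusted p over the 50 ratio tests was 0.0752, so none passed. The smallest exact permutation p that 4 against 4 arrays allow is 0.0286, and its adjusted value depends on how many ratios reach it. The contrast between subgroups was less clear in the authors' deposited values. There, at day 3, miR-30a-5p over miR-30e-5p (-0.21) and miR-30d-5p over miR-30e-5p (-0.49), both within a subgroup, were also apart, while miR-30a-5p over miR-30b-5p and miR-30b-5p over miR-30e-5p, both between subgroups, overlapped. With the mean of each miRNA's probes, 8 of 10 ratios were apart at day 3, so at least some lay within a subgroup. The ratio of miR-30c-5p over miR-30d-5p was higher in TSN by 1.15, 1.24 and 0.63 in the authors' deposited values and did not overlap at any day. With the total gene signal this ratio was instead lower in TSN at days 3 and 9. There miR-30c-5p changed by -3.01 and -2.81, while the lowest miR-30d-5p change under any setting was -0.98 and -0.87. At each of these days only 2 of 4 control arrays read miR-30c-5p well above background, which limits its ratios.

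In the authors' deposited values all miRNAs shifted in the median by 0.18, 0.37 and 0.16 at days 3, 9 and 21, and the members' changes are given relative to that shift. miR-30d-5p changed there by -0.73, -0.76 and -0.68 and passed the limma test at each day. miR-30c-5p passed at days 3 and 9 (0.42 and 0.48), and miR-30b-5p at day 9 (0.62) but not at day 3 (0.35, adjusted p = 0.0902). miR-30e-5p passed at day 21 (-0.37, adjusted p = 0.0416) and not at days 3 and 9 (-0.24 and -0.245). miR-30a-5p, with -0.45, 0.46 and -0.23, passed at no day in these values (adjusted p = 0.0683, 0.0577 and 0.414).

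**Figure D3:**
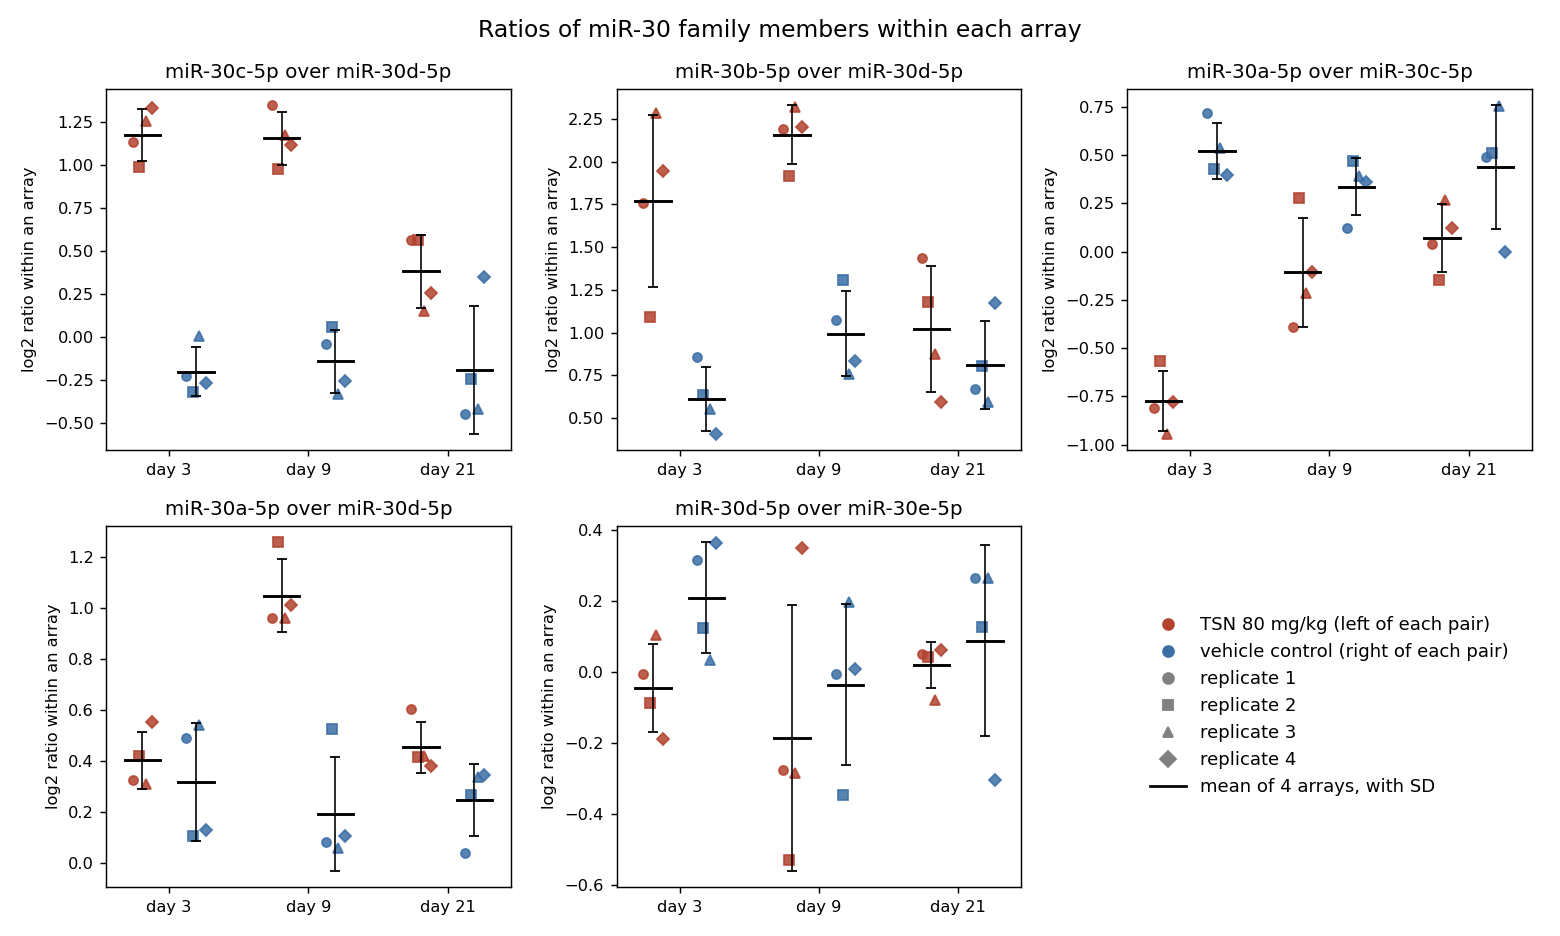
Log2 ratio of 2 members within an array (y axis) by day, TSN arrays left of control arrays, with the mean and SD (n = 4). The ratios of miR-30c-5p and miR-30b-5p over miR-30d-5p are higher on all TSN arrays at days 3 and 9, miR-30a-5p over miR-30c-5p is lower at day 3 and miR-30a-5p over miR-30d-5p higher at day 9, while miR-30d-5p over miR-30e-5p overlaps at each day.

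Across all 24 arrays, before group means were removed, correlations were higher within the subgroups than between neighbouring genes. As a description, with arrays that share slides and treatment, Pearson r was 0.76 for miR-30a-5p with miR-30d-5p, 0.80 for miR-30a-5p with miR-30e-5p, 0.88 for miR-30d-5p with miR-30e-5p and 0.77 for miR-30b-5p with miR-30c-5p. Between the subgroups r ran from -0.14 to 0.45. Of the 3 pairs with neighbouring genes, miR-30a-5p with miR-30c-5p gave r = 0.25, miR-30b-5p with miR-30d-5p 0.11, and miR-30c-5p with miR-30e-5p 0.08. After group means were removed, r was 0.26 to 0.63 over the 4 pairs within a subgroup and -0.01 to 0.43 over the 6 pairs between subgroups, so the ranges overlapped. What the single-base difference between miR-30a-5p and miR-30e-5p adds to their r was not tested.

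**Figure D4:**
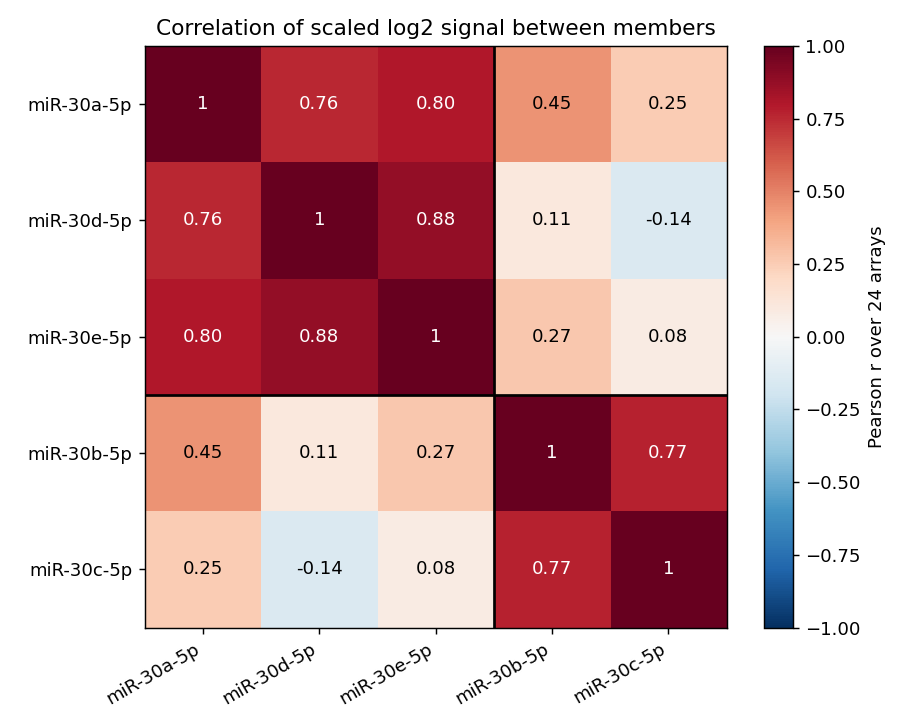
Pearson correlation of the log2 scaled signal between members over 24 arrays, ordered by sequence subgroup, with black lines between the subgroups. The squares within miR-30a-5p, miR-30d-5p and miR-30e-5p hold 0.76 to 0.88, miR-30b-5p with miR-30c-5p holds 0.77, and the squares between subgroups hold -0.14 to 0.45.

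Levels also drifted over time within an arm. The shares of all miRNAs given for these comparisons, here and for control mice below, count passes in either direction. In TSN mice, 4 of 5 members were higher at day 9 than at day 3, where 36.7% of all miRNAs passed. The changes were 0.99 for miR-30a-5p (adjusted p = 2.78e-05), 0.74 for miR-30b-5p (adjusted p = 0.00556), 0.49 for miR-30e-5p (adjusted p = 0.0153) and 0.35 for miR-30d-5p (adjusted p = 0.0127), on 2 slides, while miR-30c-5p changed by 0.33 without passing (adjusted p = 0.089). With all-probe or spike-in scaling 2 members passed, and without scaling, with normexp or with the total gene signal 0 did. Normexp turned the sign for miR-30d-5p (-0.13) and miR-30e-5p (-0.0165). At day 21 against day 9, on one slide, miR-30d-5p rose further by 0.50 (adjusted p = 0.000786) and miR-30b-5p fell by 0.64 (adjusted p = 0.0111), 2 of 5 members against 43.3% of all. The TSN arrays of the 2 days did not overlap for these 2 members, where 39% of all miRNAs did not. Of the ratios, 4 of 10 were apart against 50.2% of all, and miR-30b-5p over miR-30d-5p was lower at day 21 by -1.14. For day 21 against day 9, 1 member passed with all-probe scaling or the total gene signal, and 0 with the spike-ins, without scaling or with normexp. At day 21 against day 3, miR-30a-5p (0.90), miR-30d-5p (0.85) and miR-30e-5p (0.78) were higher, 3 of 5 members where 7.03% of all passed, and miR-30b-5p (0.10) and miR-30c-5p (0.05) did not pass. These 2 groups lie on different slides, and of the 3 calls 0 were made with all-probe or spike-in scaling, without scaling or with normexp, and 1 with the authors' deposited values or the total gene signal.

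Control mice showed a rise as well. At day 9 against day 3, on one slide, miR-30b-5p (0.71, adjusted p = 0.0244), miR-30e-5p (0.58, adjusted p = 0.0224) and miR-30d-5p (0.33, adjusted p = 0.04) were higher, 3 of 5 against 14.1% of all, and 4 of 5 members did not overlap against 17.9% of all. With 1 array left out, 0 to 3 members passed. In a fit of these 2 groups alone, miR-30b-5p (adjusted p = 0.0171) and miR-30c-5p (adjusted p = 0.0489) passed, and miR-30d-5p (adjusted p = 0.133) and miR-30e-5p (adjusted p = 0.0512) did not. Of the ratios, 2 of 10 were apart against 21.8% of all. At day 21 against day 9 no member passed in limma (changes of 0.14 to 0.38), where 0.454% of all miRNAs did. At day 21 against day 3 all 5 members were higher, by 0.59 to 0.86 (adjusted p = 0.000309 to 0.00406), where 22.9% of all miRNAs passed in either direction. These 2 groups lie on different slides. Of the 5 members, 2 passed with all-probe scaling, 1 with the total gene signal, and 0 without scaling or with normexp.

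The highest and the lowest of the 6 groups differed by subgroup. miR-30a-5p, miR-30d-5p and miR-30e-5p were highest in control day 21 (means of -2.57, -2.82 and -2.91) and lowest in TSN day 3 (-3.83, -4.23 and -4.19). miR-30b-5p and miR-30c-5p were highest in TSN day 9 (-1.72 and -2.72) and lowest in control day 3 (-2.87 and -3.68). Between these ends the order also differed within a subgroup. TSN day 9 had rank 2 for miR-30a-5p and rank 5 for miR-30d-5p and miR-30e-5p, and TSN day 21 had rank 4 for miR-30b-5p and rank 2 for miR-30c-5p. Most neighbours in these orders overlapped. The gaps without overlap were TSN day 3 below control day 3 for miR-30a-5p (0.67), control day 9 below control day 21 for miR-30d-5p (0.33), and for miR-30c-5p control day 9 below TSN day 3 (0.24) and control day 3 below control day 9 (0.39).

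Before scaling, all 5 members were brighter in TSN. The unscaled signal of miR-30d-5p averaged 61.3, 104 and 135 on TSN arrays at days 3, 9 and 21, against 14.9, 17.4 and 43.3 on control arrays, ratios of 4.11, 5.94 and 3.13. That of miR-30c-5p averaged 140.1, 231 and 178.5 on TSN arrays, against 13.3, 15.2 and 36.9 on control arrays, ratios of 10.55, 15.2 and 4.83. The ratios of the other members lay between 3.37 and 13.95 (exact two-sided permutation p = 0.0286 for each of the 15). miR-30d-5p was thus brighter by less than the 75th percentile at each day, and miR-30c-5p by more at days 3 and 9, while at day 21 its ratio of 4.83 stood beside 4.62. The part of spike-in signal and slide in this brightness was not tested, and fewer cells that release a miRNA and less of it per cell cannot be told apart in serum.

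**Figure D5:**
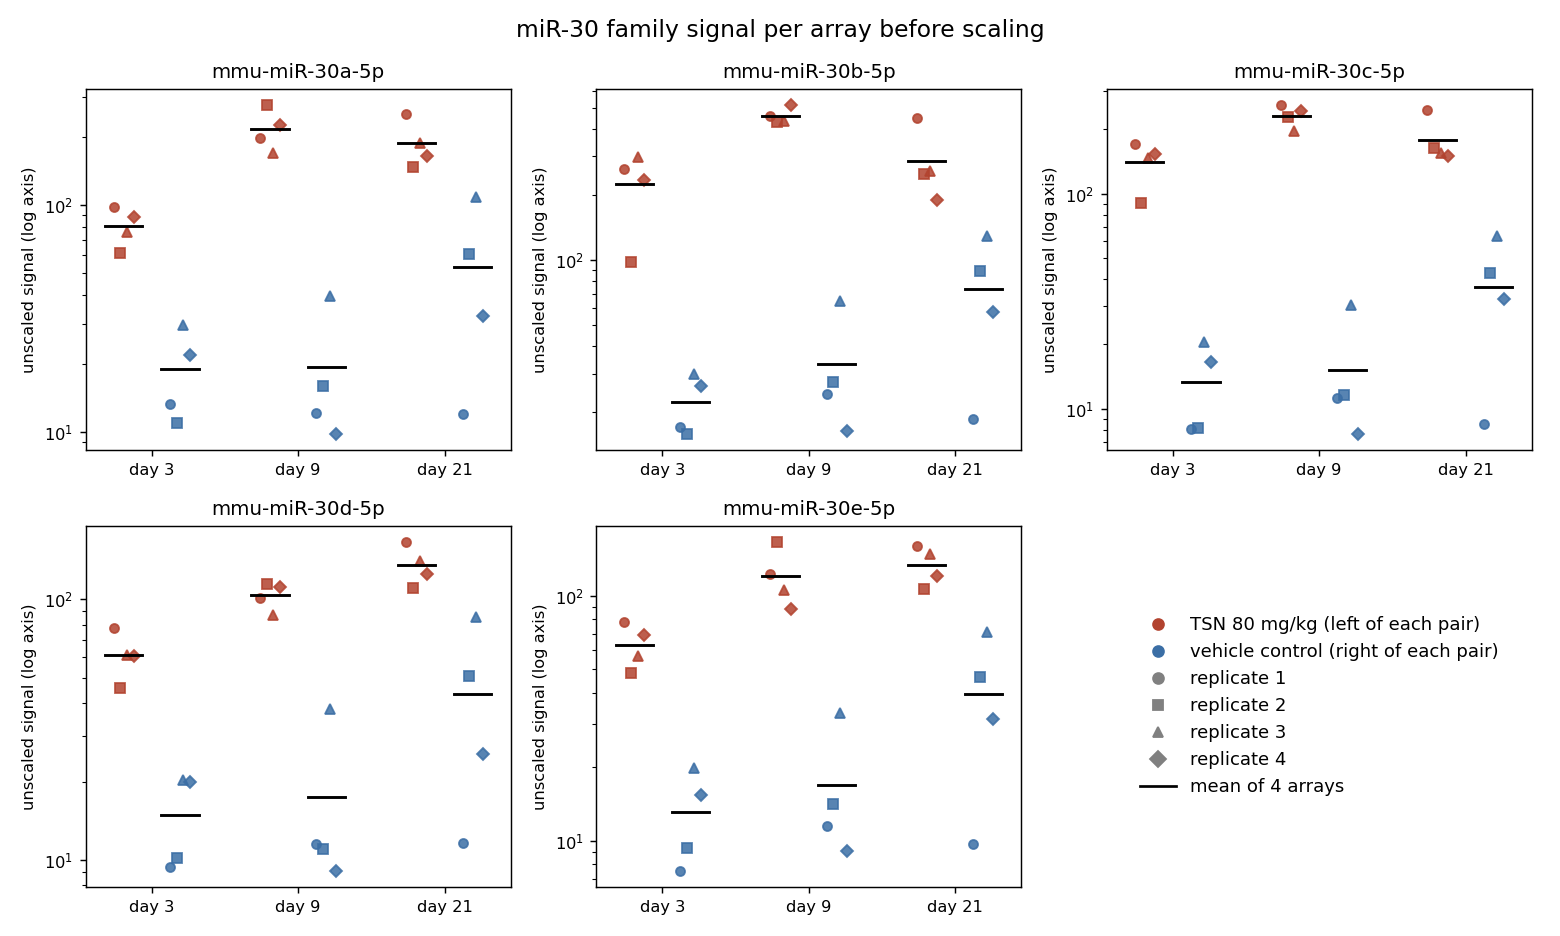
Signal of each member before scaling (y axis, log scale) by day, TSN arrays left of control arrays, with the mean of 4 arrays in black. Every TSN array is brighter than every control array of its day for all 5 members, and the ratios of means run from 3.13 to 15.2.

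The other strands of the same hairpins did not all follow the 5p strands. Of the 7 related miRNAs (the 3p strands and miR-384-5p), miR-30b-3p, miR-30d-3p and miR-384-5p were well above background on no array, and miR-30e-3p, well above background on 5 of 24 arrays, lay at or near the floor. The other 3 and miR-30e-3p were tested: at day 3, 1 was higher and 1 lower, at day 9, 0 and 2, and at day 21, 0 and 2. The 3p strands from the 2 genes of miR-30c-5p can be told apart, since they differ by G9A, U12C and C22U.
mmu-miR-30c-1-3p: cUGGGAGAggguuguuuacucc
mmu-miR-30c-2-3p: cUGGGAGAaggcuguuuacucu
miR-30c-2-3p fell at all 3 days, by 1.23 (adjusted p = 0.000113), 1.77 (adjusted p = 1.24e-06) and 0.67 (adjusted p = 0.0189) on the log2 scale, while the 5p strand rose at days 3 and 9. At each day 2 of 4 control arrays and all 4 TSN arrays read it well above background. At day 3, 1 of its TSN values lay at the floor. miR-30c-1-3p rose by 0.49 at day 3 (adjusted p = 0.0033), fell by 0.66 at day 9 (adjusted p = 0.0002) and had a change of 0.29 at day 21 (adjusted p = 0.073), with 2, 1 and 3 of 4 control arrays well above background. The count of lower strands at day 21 includes miR-30a-3p, for which no change is given, since 2 of its 4 TSN values lay at the floor and 3 of its 4 control arrays did not read it well above background.

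The miRNAs whose pattern over the 24 arrays was most like each member were taken from 149 candidates measured on every array, with Pearson r as a description. miR-30c-5p was closest to let-7b-5p (0.895), let-7d-5p (0.868) and miR-20a-5p (0.842). miR-30b-5p was closest to miR-29c-3p (0.817), miR-15b-5p (0.792) and miR-20b-5p (0.706). miR-30a-5p was closest to the red cell miRNAs miR-16-5p (0.725) and miR-451a (0.661) and to miR-140-3p (0.648). miR-30d-5p was closest to miR-7020-5p (0.783), miR-222-3p (0.744) and miR-709 (0.706), and miR-30e-5p to miR-7020-5p (0.711), miR-144-5p (0.677) and miR-222-3p (0.664). The mean of the 5 standardized members was closest to miR-215-5p (0.713), miR-451a (0.711) and miR-223-3p (0.686).

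Markers of cells that could release these miRNAs moved with the groups. The summed scaled signal of 6 erythroid miRNAs, all detected in each group, was 28.3 to 48.0, 75.02 to 94.6 and 41.6 to 62.9 in TSN at days 3, 9 and 21, against 33.25 to 57.05, 33.2 to 65.9 and 53.7 to 95.1 in controls. At day 9 the TSN range lay above the control range, while control day 21 reached 95.1. Passing the test at days 3, 9 and 21 were 1 higher and 3 lower, 3 higher and 2 lower, and 0 higher and 3 lower. The liver list (5 miRNAs, 4 tested) summed to 0.543 to 1.09, 0.607 to 5.01 and 0.513 to 0.702 in TSN, against 0.379 to 0.55, 0.345 to 0.514 and 0.461 to 1.02 in controls, with 1, 3 and 1 higher and 0 lower. The platelet list (5, all tested) had 1 higher at day 3 and 3 and 4 lower at days 9 and 21, with sums of 7.72 to 13.6 in TSN against 6.63 to 18.8 in controls. The leukocyte list (5, all tested) had 1 higher and 2 lower, then 2 and 3 lower, with sums of 0.7 to 1.79 in TSN against 0.973 to 3.69 in controls. The striated muscle list (6, 3 tested) reached 0.512 to 4.92 in TSN at day 9, against 0.0849 to 0.133 in controls, with 3 higher at that day, 1 at day 3 and 0 at day 21, and 3 to 6 of its markers were undetected in each group. Of the kidney and epithelium list (7 miRNAs), 1 was tested, it was higher at day 9, its list summed to 0.299 to 2.73 in TSN at that day against 0.259 to 0.314 in controls, and 5 or 6 were undetected in each group. The kidney and epithelium list shares members with the liver list, so the 2 are not separate readings. At day 9 the median sum was 0.449 in TSN against 0.275 in controls for the kidney and epithelium list, and 0.842 against 0.4025 for the liver list. The part of the listed cells in the miR-30 values was not tested.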

How the data were processed

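MicroRNA was measured in serum exosomes on 24 one-colour Agilent arrays. The deposited intensity values of each spot had a spatial trend removed by Agilent's Feature Extraction software (version 10.7.1.1, per the file headers), and no scaling across arrays was applied here before the steps below. An array had 58594 spots, 56430 of them not controls, for 4415 probes of 1881 miRNAs (median of 15 spots per probe, 0 saturated), and the number of spots and their signal over background limit the precision. The authors' deposited processed values are taken as log2, since they follow the log2 of the scanner values (r of 0.956 to 0.982 across miRNAs within an array); their scaling and centring are not given in the sources used here and stay unknown (column medians 4.373 to 4.4).

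Outlier and control spots were left out, spots of a probe were averaged, and signals were set relative to the 75th percentile of the same array among 261 probes that all 24 arrays read well above background. A floor of 0.0135 (-6.21 in log2) was set before log2 was taken. A probe counted as well above background where more than a 0.5 share of its spots did, and the probe with the highest mean stood for a miRNA. The 441 miRNAs that all 4 arrays of some group read well above background entered one limma fit of 6 groups (limma 3.58.1, R 4.3.3, with files read by the data.table package, version 1.17.8, two-sided, prior degrees of freedom 1.36) with 12 comparisons and adjusted p below 0.05. Ratios of members were compared over the 70 allocations of 8 arrays. Ratios within TSN days 21 and 9 and control days 9 and 3 were added after the data were seen. The fit was tested on simulated data.

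The members, related strands, marker lists (erythroid, liver, platelet, leukocyte, striated muscle, and kidney and epithelium) and rules were chosen with earlier results of these data known. The rule for named miRNAs took the 5 members, 7 related miRNAs, the marker lists and, for each member, the 3 highest r. At day 9, TSN and control arrays of the same replicate number deviated together in 4 of 4 pairs (r 0.204 to 0.358), each closest to its own number; the pairing rests on these data, and the other comparisons showed no such pattern. Slide as a block could be fitted only within TSN days 21 and 9 and control days 9 and 3, where it equals the fit on those groups alone.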

Additional observations from a re-analysis of the deposited data

Results flagged for a closer look

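Of the 15 differences of TSN effects between days that were examined for the 5 members, 3 passed the adjusted threshold in the limma fit. The TSN effect on miR-30a-5p was higher by 0.79 at day 9 than at day 3. The TSN effect on miR-30b-5p was lower at day 21 than at day 9, by -0.78, and that on miR-30c-5p by -0.55. In the 30 groups of 4 arrays formed by the 5 members, 0 had a highest or lowest array that stood apart by Dixon's criterion, where chance alone marks about 1 in 20.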

How the results depend on the processing

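Changes are given relative to the median shift of all miRNAs where a setting moved it by over 0.1; at days 3, 9 and 21 that shift was 0.50, 0.81 and 0.18 with all probes, 0.90, 1.23 and 0.66 with the spike-ins, 2.10, 2.46 and 2.06 without scaling, -1.62, -1.70 and -1.18 with normexp, and 0.18, 0.37 and 0.16 with the authors' deposited values; it was 0.19 and 0.10 at days 3 and 21 with the total gene signal and 0.11 at day 3 with the floor halved. The comparisons are named below as TSN against control (days 3, 9, 21), differences of TSN effects (day 9 minus 3, 21 minus 9, 21 minus 3), and time within an arm, and counts are of the 5 members that passed. With the 75th percentile over all probes, 1 passed at day 3, 0 at day 21, 0 for day 9 minus 3, 1 for day 21 minus 9, and over time 2, 1 and 0 in TSN (9 against 3, 21 against 9, 21 against 3) and 0 and 2 in controls (9 against 3, 21 against 3). With the spike-ins these were 1, 0, 0, 0, then 2, 0 and 0 in TSN and 0 in controls at day 9 against day 3. Without scaling 1 passed at day 3 and 0 in each of the other 8. With normexp 1 passed at day 3, 1 at day 9 and 0 at day 21, for both differences of effects and in each comparison over time named above, and 1 ratio in controls at day 9 against day 3 was apart. The member that passed with normexp at days 3 and 9 was miR-30b-5p (0.92 and 1.21, limma adjusted p = 0.0025 and 0.000141), which passed at no day in the main fit. None of the members called at these days in the main fit passed with normexp. With the total gene signal 1 passed at day 21, 0 and 0 for the differences, 0, 1 and 1 over time in TSN and 0 and 1 in controls, and 0 ratios were apart at day 21 and in controls at day 9 against day 3. With the authors' deposited values 2 passed at day 3, 2 and 1 in TSN (9 against 3, 21 against 3) and 0 in controls at day 9 against day 3, where 0 ratios were apart. With the mean of a miRNA's probes 5 passed at day 9 and 1 at day 21, and 8, 1 and 4 ratios were apart at day 3, at day 21 and in controls at day 9 against day 3. Quantile normalization left 1 in controls at day 9 against day 3, and with the median of the spots 1 ratio was apart at day 21. For day 21 minus 9, 1 passed with the floor halved, with the replicate block and with only the groups compared, and 0 with no filter. Restricting to miRNAs well above background on all 24 arrays left 3 members to test, of which 2, 1 and 1 passed at days 3, 9 and 21, 1 and 1 for day 21 minus 9 and 21 minus 3, and 1 and 3 in controls (9 against 3, 21 against 3).

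Signs turned without scaling (day 3: miR-30a-5p 0.0869, miR-30e-5p 0.16; day 9: miR-30d-5p 0.35, miR-30e-5p 0.50; day 21: miR-30a-5p 0.14). They turned with normexp for miR-30a-5p (0.0171 at day 3, 0.10 at day 21) and, for TSN day 9 against day 3, for miR-30d-5p (-0.13) and miR-30e-5p (-0.0165). With the total gene signal they turned for miR-30b-5p (-2.07 at day 3), miR-30c-5p (-3.01 at day 3, -2.81 at day 9), miR-30a-5p (-2.09 at day 9), for day 21 minus 9 in miR-30b-5p (0.59) and miR-30c-5p (1.59), and for control day 21 against day 3 in miR-30a-5p (-0.91), miR-30b-5p (-0.86) and miR-30c-5p (-1.48). The cause was not tested. With 1 array left out, the members that passed numbered 1 to 3 at day 21 (1 without control replicate 4), 0 to 3 for day 21 minus 9, 0 to 1 for day 21 minus 3, 1 to 3 for TSN day 21 against day 9 (1 without TSN day 21 replicate 4), 0 to 3 for control day 9 against day 3 (0 without control day 3 replicate 1 or 4 or control day 9 replicate 2 or 4, 1 without control day 3 replicate 3) and 0 to 1 for control day 21 against day 9 (1 without control day 9 replicate 3). For day 21 minus 9 the count was 0 without control day 9 replicate 1 or 4, control day 21 replicate 4, TSN day 9 replicate 4 or TSN day 21 replicate 3 or 4. The ratios apart numbered 2 to 6 at day 21 (6 without control replicate 4), 4 to 7 for TSN day 21 against day 9 (7 without TSN day 9 replicate 2) and 2 to 4 for control day 9 against day 3. With the replicate number as a block, the ratios with all 4 differences of one sign were 5 in controls at day 9 against day 3, and the block changed no member's call for TSN against control at day 9. Signals on control arrays close to background limit miR-30c-5p and miR-30e-5p, and the slides limit every TSN and control comparison.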
